A study of Homo sapiens with 6 samples.

Results

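Polycomb repressors are chromatin complexes that keep developmental genes silent through cell division. Polycomb repressive complex 2 (PRC2) methylates lysine 27 of histone H3 with EZH1 or EZH2 as its catalytic subunit, held in an active form by SUZ12 and EED and steered to chromatin by accessory subunits such as JARID2, MTF2 and PHF19. Polycomb repressive complex 1 (PRC1) ubiquitinates histone H2A through a RING and PCGF pair, of which BMI1 is a PCGF subunit, and its CBX subunits, among them CBX2 and CBX8, bind the PRC2 mark. In colon carcinoma these complexes have been studied mainly through EZH2 and BMI1, which are often abundant in proliferating tumour cells.

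The 10 genes described here, EZH1, EZH2, SUZ12, EED, JARID2, MTF2, PHF19, BMI1, CBX2 and CBX8, were the rows of the deposited expression table with exactly these symbols, 10 of the 60546 gene identifiers that it listed. RNA was sequenced from HCT-116, an established human colon carcinoma cell line with epithelial features, carrying the viral expression vector PMSCV either with a GOLPH3 cDNA (3 libraries, group GOLPH3) or empty (3 libraries, group Vector). Both groups were stable lines made by viral infection, labelled wild type in genotype and grown in DMEM with fetal bovine serum, and the study drew its samples from different generations of each line. Each sample name ends in P and a number of unexplained meaning: P8, P12 and P13 in libraries 1, 2 and 3 of the GOLPH3 group, and P12, P11 and P13 in libraries 1, 2 and 3 of the Vector group. Nothing says that the libraries of a group came from separate infections or cultures, so p-values measure the spread between these samples, which may be technical.

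Each value is a read count that had been divided by a size factor per library and is called normalized reads here, with libraries always given in the order 1, 2, 3. The libraries held 15708846 to 21900764 reads (a 1.39-fold range), and mitochondrial genes took 4.41% to 9.97% of them. GOLPH3, the gene of the construct, had 1629.5, 1272 and 1383 normalized reads in the GOLPH3-labelled libraries and 1968, 1892 and 1472 in the Vector-labelled ones. Its log2 difference was -0.31 (SE 0.27, adjusted p = 0.609, limma), so the transcript did not check the labels and every direction below is that of GOLPH3-labelled libraries against Vector-labelled libraries. The epithelial marker EPCAM was present in all 6 libraries, at 5935, 5917 and 6130 normalized reads in the GOLPH3 group and 3217, 4220 and 1758 in the Vector group, without overlap. Of 15 colon epithelial markers 3 (KRT20, CDX1 and TFF3) had at most 3 reads in every library. VIL1, LGALS4, GPA33, CDH17 and CEACAM5 were also near the limit, with at most 10 reads in any library.

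All 10 Polycomb genes were well above the detection limit of 3 reads in every library, the lowest value being 221 normalized reads for CBX8. Levels of different genes were compared per kilobase of exon, since the deposited values are not corrected for length. The length is the union of all annotated exons of a gene (7.016 kb for EED and 4.522 kb for EZH2). The order of genes depends on that choice, because exons that are not used in these cells also count. On this scale EZH2 had the highest median level over the 6 libraries, 472 normalized reads per kilobase (range 328 to 594), followed by SUZ12 at 319.5 (168 to 596), BMI1 at 274 (179 to 435) and MTF2 at 188 (106 to 269). The order continued with JARID2 at 175 (137 to 247), CBX2 at 147 (78.6 to 299), PHF19 at 122 (109 to 207), EZH1 at 97.2 (81.7 to 110.04), CBX8 at 86.3 (53.1 to 154) and EED at 81.2 (59.1 to 105). The ranges of every gene and its neighbour in this order overlapped, whereas the range of EZH2 lay wholly above those of MTF2, JARID2, CBX2, PHF19, EZH1, CBX8 and EED.

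**Figure D1:**
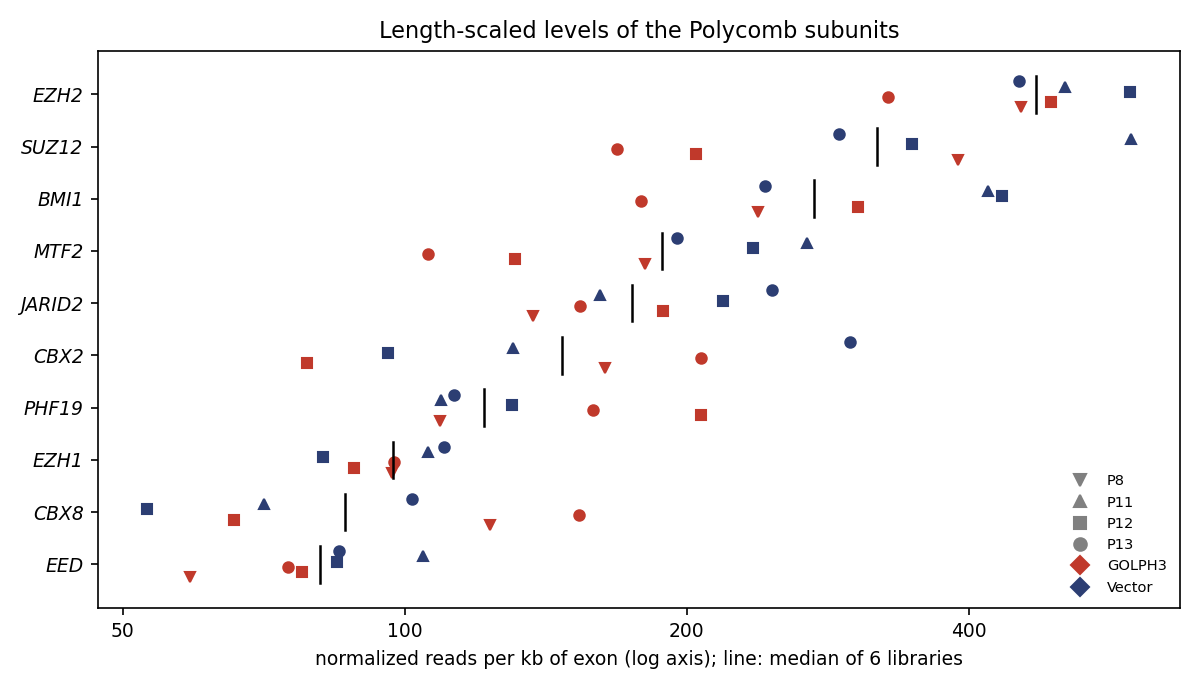
Levels of the 10 Polycomb genes in normalized reads per kilobase of exon (log axis), 1 point per library, with colour for the group, shape for the number after P and a black line for the median of the 6 libraries. EZH2 stands at the top (median 472) and EED at the bottom (median 81.2), and the points of neighbouring genes overlap.

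EZH1 and EZH2 are alternative catalytic subunits, EZH2 being the form of dividing cells and EZH1 the form that persists in resting ones. EZH1 (ENSG00000108799, chromosome 17, 42700275 to 42745049, minus strand, GRCh38) had 677, 618 and 681 normalized reads in the GOLPH3-labelled libraries and 571, 741 and 769 in the Vector-labelled ones. It was the steadiest of the 10 genes, with a 1.35-fold range over the 6 libraries and overlapping groups. The group means were 659 ± 35.6 and 694 ± 107 (SD, n = 3 each), a log2 difference of -0.06 (95% interval -0.67 to 0.55, adjusted p = 0.933).

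EZH2 (ENSG00000106462, chromosome 7, 148807383 to 148884321, minus strand) had 2057, 2212 and 1483 normalized reads against 2687.5, 2294 and 2047. The P13 libraries of both groups were the 2 lowest, and the groups overlapped. The means were 1917 ± 384 and 2343 ± 323 (SD, n = 3 each), with a log2 difference of -0.30 (95% interval -0.91 to 0.31, adjusted p = 0.636). Per kilobase, EZH2 exceeded EZH1 in every library, by 4.69, 5.54 and 3.36-fold in the GOLPH3-labelled libraries and by 7.27, 4.79 and 4.11-fold in the Vector-labelled ones. On these union exon lengths EZH1 made up 12.1% to 22.9% of the summed EZH transcript per kilobase. Its lowest share was in a Vector-labelled library and its highest in one labelled GOLPH3.

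SUZ12 and EED are the non-catalytic core, SUZ12 as the scaffold on which accessory subunits assemble and EED as the reader of the methyl mark. SUZ12 (ENSG00000178691, chromosome 17, 31937018 to 32001045, plus strand) had 2548, 1341 and 1103 normalized reads against 2279, 3899 and 1905. It varied 3.54-fold over the libraries, and the P8 GOLPH3-labelled library lay above 2 of the 3 Vector-labelled libraries. The means were 1664 ± 775 and 2694 ± 1059.8 (SD, n = 3 each), with a log2 difference of -0.72 (SE 0.38, 95% interval -1.54 to 0.10, adjusted p = 0.356). SUZ12P1, a pseudogene copy of part of SUZ12, was listed at 239.96 to 391 normalized reads, and how reads were shared between the copies is not known.

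EED (ENSG00000074266, chromosome 11, 86244544 to 86278813, plus strand) had 414, 546 and 526 normalized reads against 594, 734 and 596. All 3 GOLPH3-labelled libraries lay below all 3 Vector-labelled ones, although the gap between the nearest pair was small. The means were 495.5 ± 71.0 and 641 ± 80.2 (SD, n = 3 each), and the log2 difference of -0.38 did not pass the test (SE 0.29, adjusted p = 0.552, limma). An exact two-sided permutation test gave p = 0.1, the smallest that 3 libraries against 3 allow.

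JARID2, MTF2 and PHF19 are accessory subunits that define subtypes of PRC2, JARID2 one of them and the Polycomb-like proteins MTF2 and PHF19 another. JARID2 (ENSG00000008083, chromosome 6, 15246296 to 15522040, plus strand) had 824, 1134 and 926 normalized reads against 1314, 972 and 1485.5. The groups overlapped through the P11 Vector-labelled library. The means were 961 ± 158 and 1257 ± 262 (SD, n = 3 each), a log2 difference of -0.38 (SE 0.29, adjusted p = 0.554).

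MTF2 (ENSG00000143033, chromosome 1, 93079235 to 93139081, plus strand) had 1068, 774 and 627 normalized reads in the GOLPH3-labelled libraries and 1389.5, 1589.6 and 1155 in the Vector-labelled ones. The groups did not overlap, the highest GOLPH3-labelled library lying just under the lowest Vector-labelled one. With means of 823 ± 225 and 1378 ± 217 (SD, n = 3 each) MTF2 had the smallest p of the 10 genes, at a log2 difference of -0.77 (SE 0.30, 95% interval -1.42 to -0.11, unadjusted p = 0.0254), but it did not pass after adjustment over all genes (adjusted p = 0.199, limma). The difference lost its unadjusted p under 0.05 when either the P12 or the P13 GOLPH3-labelled library, or the P12 or P11 Vector-labelled library, was left out, while its log2 value stayed between -0.97 and -0.59 under all 16 alternatives.

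PHF19 (ENSG00000119403, chromosome 9, 120855652 to 120894896, minus strand) had an estimate of the other sign, with 734, 1394 and 1069.6 normalized reads against 876, 736 and 760.4. The P12 and P13 GOLPH3-labelled libraries were higher than all others, and the P8 library was the lowest of the 6. The means were 1066 ± 330.1 and 791 ± 74.7 (SD, n = 3 each), a log2 difference of 0.39 (SE 0.31, 95% interval -0.28 to 1.06, adjusted p = 0.569). MTF2 and PHF19, which are paralogs, therefore had estimates of opposite sign, neither of which passed the adjusted test.

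BMI1, also known as PCGF4, defines the canonical form of PRC1 together with its close relative PCGF2. BMI1 (ENSG00000168283, chromosome 10, 22321211 to 22331484, plus strand) had 1022, 1304.5 and 765 normalized reads against 1861, 1797 and 1039. Only the P13 Vector-labelled library fell within the range of the GOLPH3-labelled libraries. The means were 1031 ± 269.7 and 1566 ± 457 (SD, n = 3 each), a log2 difference of -0.59 (SE 0.33, 95% interval -1.30 to 0.13, adjusted p = 0.393). COMMD3-BMI1, a readthrough gene on the same strand that shares the BMI1 exons, was listed at 0 in all 6 libraries. How reads in the shared exons were counted is not known, and the 0 is not read here as absence of the readthrough.

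CBX2 and CBX8 carry the chromodomain through which canonical PRC1 binds methylated histone H3, and their genes are neighbours, 4148 bases apart on opposite strands of chromosome 17. CBX2 (ENSG00000173894, 79778132 to 79787983, plus strand) had 931, 447 and 1179.6 normalized reads against 547, 743 and 1698. It was the most variable of the 10 genes, with a 3.80-fold range, and both P12 libraries were the lowest whatever their group. The group means were 852 ± 373 and 996 ± 616 (SD, n = 3 each), a log2 difference of -0.16 (95% interval -1.16 to 0.83, adjusted p = 0.891).

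CBX8 (ENSG00000141570, 79792132 to 79801683, minus strand) had 514, 274 and 639 normalized reads against 221, 295 and 424. Here too the P12 libraries were the 2 lowest, and the groups overlapped. The means were 476 ± 186 and 313 ± 103 (SD, n = 3 each), a log2 difference of 0.57 (SE 0.39, 95% interval -0.28 to 1.41, adjusted p = 0.499). The CBX2 to CBX8 ratio per kilobase was 1.325, 1.195 and 1.351 in the GOLPH3-labelled libraries and 1.81, 1.85 and 2.93 in the Vector-labelled ones and did not overlap between the groups, a ratio that was looked at after its values were seen and was not tested.

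**Figure D2:**
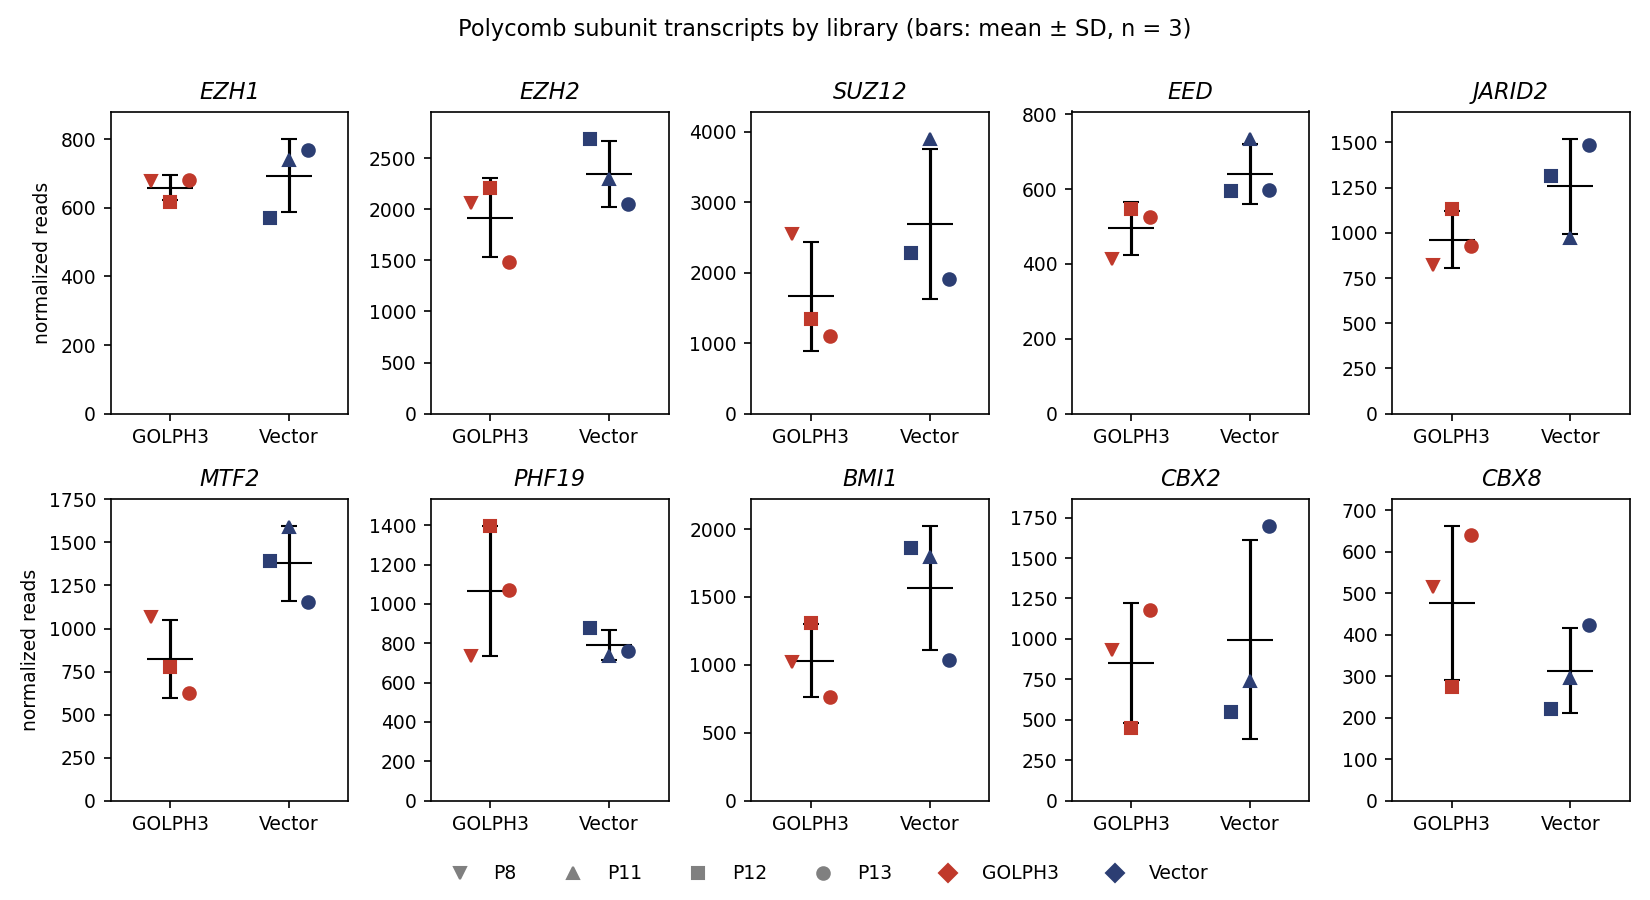
Normalized reads of each Polycomb gene in the 3 GOLPH3-labelled libraries (red) and the 3 Vector-labelled ones (blue), with shape for the number after P and black bars for the mean ± SD (n = 3). The groups stand apart for EED and MTF2, and for CBX2 and CBX8 the squares of the P12 libraries are the lowest points.

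Taken as a set, 0 of the 10 genes differed between the groups at an adjusted p under 0.05 by limma, and by edgeR or DESeq2 on the recovered reads 0 did so either. Of all 26536 genes tested 5.07% passed that threshold, 4.12% as lower and 0.953% as higher. At an unadjusted p under 0.05, the threshold of the study, 1 gene (MTF2) was lower and none was higher, beside 10.1% of all genes lower and 7.51% higher. EED and MTF2 were 2 of 10 genes whose groups did not overlap, beside 22% of all genes. The log2 difference was negative for 8 of the 10 genes, with a median of -0.34, beside a median of 0.02 over all genes tested. The 2 genes with positive estimates were PHF19 and CBX8.

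The summed level of the 10 genes was 8999 to 10790 normalized reads in the GOLPH3-labelled libraries and 11880 to 13799 in the Vector-labelled ones. Their spread within groups differed widely, from an SD of 0.17 on the log2 scale for EZH1 and 0.20 for EED to 0.59 for SUZ12 and 0.79 for CBX2, beside a median of 0.39 over 6182 genes of similar level. In a bulk sample, fewer cells of a type and less RNA per cell cannot be told apart.

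**Figure D3:**
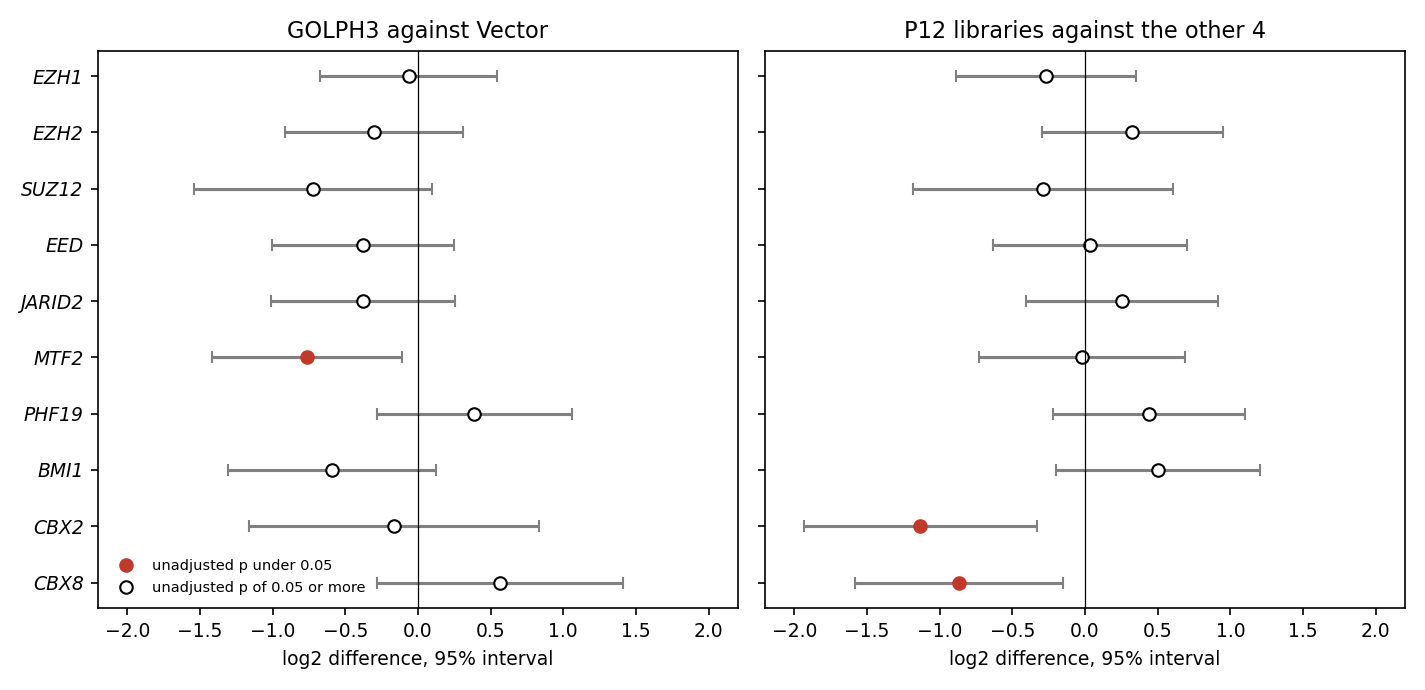
Log2 differences of the 10 Polycomb genes with 95% intervals from limma, for GOLPH3-labelled libraries against Vector (left) and for the 2 P12 libraries against the other 4 (right), filled where the unadjusted p was under 0.05. MTF2 is the filled point on the left (-0.77), and CBX2 (-1.13) and CBX8 (-0.87) are filled on the right.

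The number after P occurs in both groups only for P12 and P13, which allowed the groups to be compared within these pairs. The difference of MTF2 was -0.84 on the log2 scale between the P12 libraries and -0.88 between the P13 libraries, and that of SUZ12 was -0.76 and -0.79. PHF19 differed by 0.67 and 0.49, BMI1 by -0.51 and -0.44, and CBX8 by 0.31 and 0.59 in the same 2 pairs. These genes kept their sign within both pairs, as did EZH2 (-0.28 and -0.46), EED (-0.12 and -0.18), JARID2 (-0.21 and -0.68) and CBX2 (-0.29 and -0.53). EZH1 did not, at 0.11 and -0.17. Between the P8 and P11 libraries CBX2 differed by 0.33 and PHF19 by -0.0038, while the other genes had the sign of their main estimate. Each pair holds 1 library per group and is part of the same 6 libraries, so the signs are no separate test.

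When limma was given the P number as a blocking factor, 3 of the 10 genes passed the adjusted threshold, beside 22.9% of all genes in that fit. They were MTF2 (log2 difference -0.86, adjusted p = 3e-04), SUZ12 (-0.78, adjusted p = 0.000943) and PHF19 (0.58, adjusted p = 0.0217). That fit draws its group difference from 4 libraries and leaves 1 residual degree of freedom, so that its error rests almost wholly on the variance shared across genes.

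The P12 libraries were then compared with the other 4 in a fit that kept the group as a term. In limma 0 of the 10 genes passed an adjusted p under 0.05, as did 0% of all genes, and edgeR and DESeq2 also called 0 of the 10, though DESeq2 called 200 of all genes. At an unadjusted p under 0.05, CBX2 and CBX8 were lower in the P12 libraries, 2 of 10 genes, and none was higher. Of all genes tested 7.24% passed that threshold, 3.21% as lower and 4.02% as higher. The mean of CBX2 was 497 normalized reads in the P12 libraries and 1138 in the others, a log2 difference of -1.13 (SE 0.36, 95% interval -1.94 to -0.33, unadjusted p = 0.0104, adjusted p = 0.504). For CBX8 the means were 248 and 468, a log2 difference of -0.87 (SE 0.32, 95% interval -1.58 to -0.15, unadjusted p = 0.0220, adjusted p = 0.596). Exact permutation tests of these levels gave p = 0.133 for each gene, where 2 libraries against 4 cannot go below 0.0667. When either P12 library was left out, neither gene kept an unadjusted p under 0.05, and CBX8 also lost it without the P13 GOLPH3-labelled library.

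EZH1 was also lowest in both P12 libraries, though by less (log2 difference -0.27, SE 0.28, adjusted p = 0.924), which made 3 of 10 genes without overlap, all lower, beside 12.8% of all genes without overlap and 6.1% lower without it. The remaining estimates lay between -0.29 for SUZ12 and 0.50 for BMI1, and the unadjusted p of each was above 0.05.

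**Figure D4:**
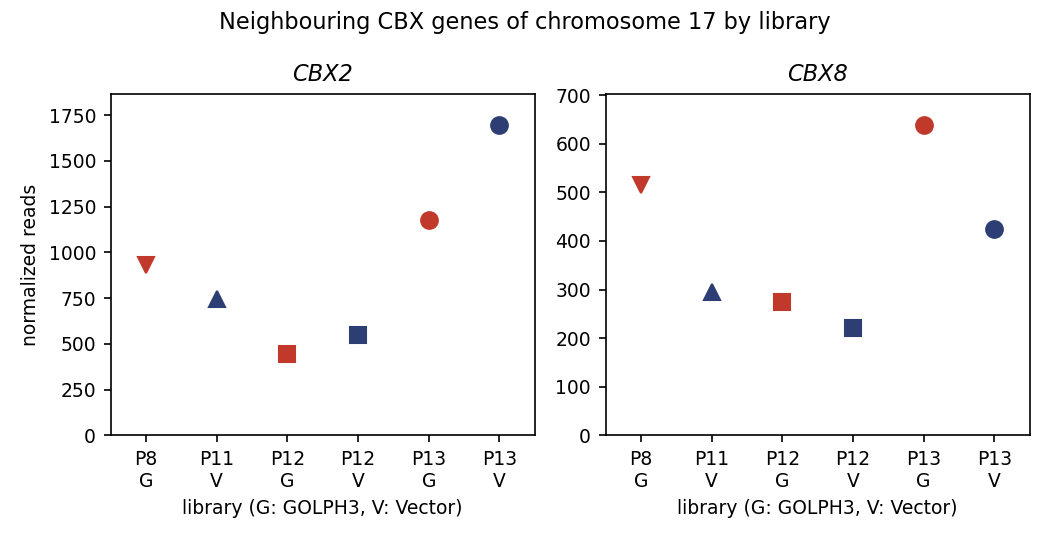
Normalized reads of CBX2 and CBX8 in the 6 libraries, ordered by the number after P, with red for GOLPH3-labelled libraries (G) and blue for Vector (V). The 2 P12 libraries are the lowest for both genes, CBX2 at 547 and 447 and CBX8 at 221 and 274.

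The genes with the pattern most like that of MTF2 over the 6 libraries, by Pearson correlation of log2 levels, were GPR180 (r = 0.999), CEP57 (0.999) and ADAR (0.998). All 3 fell in the same order of libraries as MTF2, from the P11 Vector-labelled library down to the P13 GOLPH3-labelled library. ADAR spanned only 6512 to 8683 normalized reads, while GPR180 spanned 426 to 1393. They were the closest of all genes tested, on 6 points that share their depth and group structure, and are given as a description.

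The start regions of the 2 genes whose groups did not overlap, MTF2 and EED, are shown beside that of EZH2, the most abundant of the 10 per kilobase. Each is the 250 bases before the RefSeq start on GRCh38.p14, read 5′ to 3′ on the strand of the gene, with capitals for the GC box GGGCGG and the CCAAT box CCAAT on either strand (CCGCCC and ATTGG are their reverse complements, and neighbouring GC boxes can overlap).
MTF2, chr1:93079033-93079282, plus strand: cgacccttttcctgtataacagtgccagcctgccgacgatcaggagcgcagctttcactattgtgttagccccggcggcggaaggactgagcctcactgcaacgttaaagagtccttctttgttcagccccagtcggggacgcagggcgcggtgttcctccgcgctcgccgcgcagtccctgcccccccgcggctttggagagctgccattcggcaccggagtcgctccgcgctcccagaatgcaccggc
EED, chr11:86244503-86244752, plus strand: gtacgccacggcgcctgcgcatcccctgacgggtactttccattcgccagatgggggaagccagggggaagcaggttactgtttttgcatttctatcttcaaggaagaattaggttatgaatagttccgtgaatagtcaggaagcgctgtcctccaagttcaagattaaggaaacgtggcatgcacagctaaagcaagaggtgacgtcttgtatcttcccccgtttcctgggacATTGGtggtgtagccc
EZH2, chr7:148884292-148884541, minus strand: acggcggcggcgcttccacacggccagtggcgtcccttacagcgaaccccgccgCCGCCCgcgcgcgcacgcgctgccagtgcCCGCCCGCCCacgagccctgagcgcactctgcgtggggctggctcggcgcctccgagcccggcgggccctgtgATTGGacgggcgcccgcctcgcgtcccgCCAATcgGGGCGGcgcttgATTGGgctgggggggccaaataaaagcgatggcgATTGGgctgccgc

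The MTF2 stretch held neither box, the EED stretch held 1 CCAAT box at position -16, and the EZH2 stretch held 4 GC boxes and 4 CCAAT boxes. Windows of 300 bases, with 50 bases past the start, were found for 8 of the 10 genes. The GC box was in windows of 6 of these 8 genes (EZH1, EZH2, SUZ12, JARID2, PHF19 and BMI1), beside 45% of all 35116 windows, and the CCAAT box in those of 5 (EZH2, SUZ12, EED, JARID2 and PHF19), beside 34.6%. EZH2, JARID2, PHF19 and BMI1 had 2 windows each, which gives these genes more sequence to hold a match. TTTGGCGC, one form of the site of the cell cycle factor E2F, was in the EZH2 window (0.652% of all windows), and another form, TTTCGCGC, was in none of the 8 (0.515%). Further forms of that site were not searched for, so a gene without these forms is not read as lacking an E2F site. The GC content was 52.3% for EED, 63% for MTF2 and 74.7% for EZH2, beside a median of 58.7%. A match is a description of the letters and not evidence of binding.

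The other subunits of both complexes, the partners of variant PRC1 and the deubiquitinase that removes the PRC1 mark were read from lists of 43 further genes, 40 of which could be tested. In these lists 4 genes were lower and 0 higher at an adjusted p under 0.05, beside 4.12% and 0.953% of all genes, and 2 of the 4, AUTS2 and ASXL3, passed the filter on low values only through the Vector-labelled libraries. The median log2 difference was -0.29, beside 0.02 over all genes, and 26 of the 40 estimates were negative. For PRC2 the histone chaperones RBBP7 and RBBP4, which complete the core, had adjusted p of 0.150 and 0.179. RBBP7 had 2727, 2475 and 2424 normalized reads against 3994, 3932 and 4794, a log2 difference of -0.73, and RBBP4 had a difference of -0.75. In both the groups did not overlap. AEBP2, the partner of JARID2 in its PRC2 subtype, had a log2 difference of -0.54 (adjusted p = 0.382). Across the 6 core genes all estimates were negative, with a median of -0.55.

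In PRC1 the RING subunit RNF2, the main ubiquitin ligase, had 886, 536 and 547 normalized reads against 1218, 1432 and 959. Its groups did not overlap, with a log2 difference of -0.89 that missed the adjusted threshold (adjusted p = 0.143). RING1 and PCGF2, which are widely expressed, were listed at 0 in all 6 libraries, which is how the table gives them and is not read here as absence of the transcript. The CBX genes gave 0 calls and a median of 0.52, with CBX6 at 0.52 (adjusted p = 0.420).

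The calls among Polycomb genes fell on 4 accessory genes outside the 10. SCML1 and SCML2, relatives of the fly gene Sex comb on midleg, were both lower in the GOLPH3-labelled libraries. SCML1 averaged 223 ± 49.3 against 1208 ± 59.7 normalized reads (SD, n = 3 each), a log2 difference of -2.46 (SE 0.30, adjusted p = 2.4e-04), and SCML2 averaged 138 ± 36.7 against 587 ± 14.1, a difference of -2.11 (SE 0.32, adjusted p = 0.00143, but 0.0829 without both P12 libraries). AUTS2, a partner of a variant PRC1 with PCGF3 or PCGF5, had 0 reads in all GOLPH3-labelled libraries and 546, 197 and 844 normalized reads in the Vector-labelled ones, at least 164-fold lower against the limit of 3 reads per library. ASXL3, a subunit of the deubiquitinase that removes the PRC1 mark, had 0, 0.825 and 0 normalized reads against 60.7, 27.4 and 70.4. Since AUTS2 and ASXL3 entered the test only where they were high, no p is given for them. BCOR, which assembles the variant PRC1 with PCGF1, and FOXK2, which recruits the deubiquitinase, had log2 differences of -1.18 (adjusted p = 0.103, limma) and 0.66 (adjusted p = 0.220, limma). BCOR passed under 4 of 16 alternatives, DESeq2 among them (adjusted p = 0.0404).

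H3K27 demethylases and genes of the trithorax group, which oppose Polycomb, gave 0 calls among 13 tested genes, with a median of -0.0005. The H3K27 demethylase KDM6A had a log2 difference of -0.81 (adjusted p = 0.197) without overlap between the groups, and KDM6B had 1.02 (adjusted p = 0.327) with overlap. Estimates of the 2 demethylases thus pointed in opposite directions, and neither passed.

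Of 40 genes widely known as Polycomb targets in stem cells, 34 passed the filter on low values, but 12 of these had at most 3 reads in every GOLPH3-labelled library, and most of those passed it only through the Vector-labelled ones, where they were high. Their calls therefore follow in part from the filter, and the 16 calls among the 34 are not read as support. Among the 21 targets with at least 1 normalized read in every library, 4 were called at an adjusted p under 0.05, beside 405 of 18996 genes. HOXD13, a posterior homeobox gene, had 0 reads in the GOLPH3-labelled libraries and 804, 527 and 1339.6 normalized reads in the Vector-labelled ones (at least 276-fold lower). HAND1, a heart and trophoblast factor, had 0 reads against 629, 359 and 1515 normalized reads (at least 259-fold lower), and the same held for GATA4 (at least 80.1-fold lower) and PAX3 (at least 52.3-fold lower). HOXD10 averaged 1.79 ± 2.24 against 684 ± 256 normalized reads (SD, n = 3 each). In all, 18 of the 40 genes stayed within the limit of 3 reads throughout the GOLPH3-labelled libraries, and 6 of these did so in all 6 libraries. Without both P12 libraries 1 of 24 tested targets was called, beside 256 of 23288 genes. Without Vector library 1, 2 or 3 the calls were 4, 9 and 4 of 25 targets. All genes gave 459 of 24813, 895 of 24914 and 481 of 25152 in those fits. Targets at 0 in the GOLPH3-labelled libraries failed the filter in each of these fits and were not tested.

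**Figure D5:**
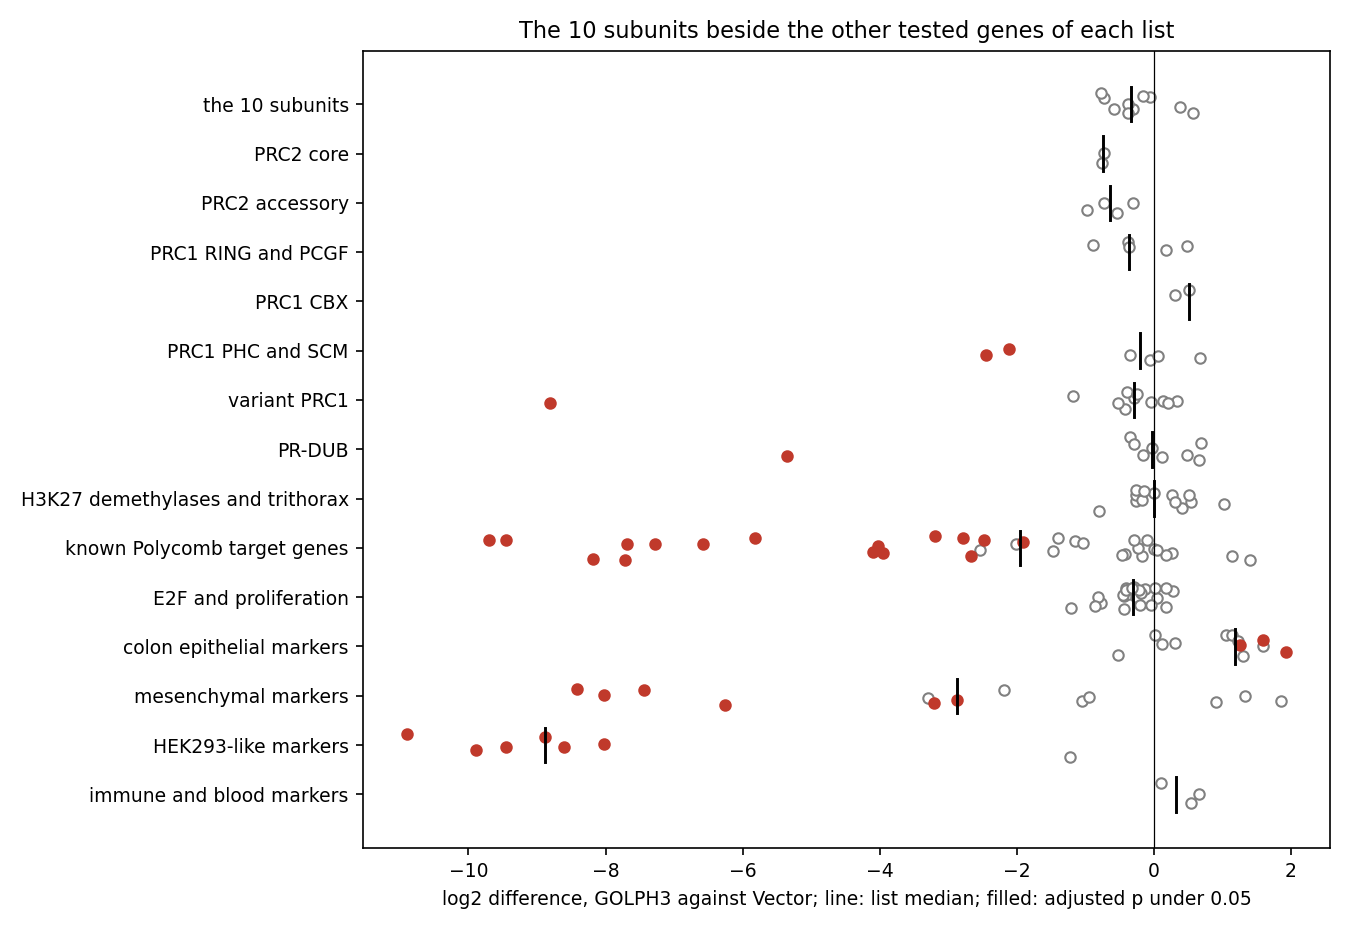
Log2 differences of the tested genes for GOLPH3-labelled libraries against Vector, with the 10 Polycomb genes in the top row and the other genes of each list below, black lines for list medians and filled points for an adjusted p under 0.05, leaving out 2 genes that are not reported here. The 10 genes lie between -0.77 and 0.57 with none filled, while the filled points far to the left are mostly genes with few or no reads in the GOLPH3-labelled libraries.

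Many HEK293, mesenchymal and colon epithelial markers moved with the group labels, and so alongside every group difference given above. The 9 genes that mark the embryonic kidney line HEK293 had sums of 314 to 550 normalized reads in the GOLPH3-labelled libraries against 4102 to 11876. Nearly all of the sum in the GOLPH3-labelled libraries was ZIC2, at 529, 312 and 550 against 821, 796 and 1780. NR0B1 and TSPYL5 were at 0 in all 6 libraries. Of the 7 genes that passed the filter, 5 had at most 3 reads in every GOLPH3-labelled library and passed only through the Vector-labelled ones. LIN28B, at 5.37, 1.65 and 0 normalized reads in the GOLPH3-labelled libraries, also needed Vector-labelled libraries to pass. IRS4, NEFM, UCHL1 and HAND1 were at 0 in all GOLPH3-labelled libraries, IRS4 at 1412, 1006 and 4831 normalized reads in the Vector-labelled ones, and NEFL had 1 read in 1 GOLPH3-labelled library. HAND1 is on the list of targets as well. The 15 mesenchymal markers had sums of 2005 to 2189 against 4568 to 8761, with ZEB2 and TWIST2 at 0 and CDH2 at no more than 3 reads in each GOLPH3-labelled library. VIM (log2 difference -7.44, adjusted p = 1.09e-05) and ZEB1 (-2.87, adjusted p = 0.00404) were lower by limma. Of the 13 markers tested 3 had positive estimates, among them COL6A3 (1.85, adjusted p = 0.123) and COL1A1 (0.91, adjusted p = 0.151), whose groups did not overlap. Of 15 colon epithelial markers 12 were tested and 3 were higher (KRT19, ELF3 and KRT18, by 1.92, 1.58 and 1.26 on the log2 scale), with sums of 65971 to 138870 against 31424 to 42282. CDX2 was the only tested one with a negative estimate (-0.52, adjusted p = 0.636, limma), and its groups overlapped. KRT18 was called under only 7 of 16 alternatives, and ELF3 and KRT19 under 14 and 15. Of 7 immune and blood markers 5 had at most 3 reads in every library, CD68 among them, and the list summed to 4.12 to 25.6 normalized reads against 23.0 to 59.2. The part of these differences in the Polycomb values was not tested.

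Proliferation genes, which are commonly expressed with EZH2, were read as a further list. Of 24 genes 0 were called by limma at an adjusted p under 0.05 (4 were lower at an unadjusted p under 0.05), 19 estimates were negative and the median was -0.31, close to that of the 10 Polycomb genes. Their summed level was 67547 to 73125 normalized reads against 81428 to 93557, without overlap. TOP2A, a topoisomerase of dividing cells, had a log2 difference of -1.22 (adjusted p = 0.0600, limma) and passed under 3 of 16 alternatives. MCM6, a subunit of the replicative helicase, had one of -0.81 (adjusted p = 0.138). The part of proliferation in the Polycomb values was not tested.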

How the data were processed

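The authors deposited a signal per gene and library for 6 HCT-116 RNA-seq libraries, made, per the submitters' processing notes, with fastp 0.20.0, HISAT2 2.1.0, featureCounts 1.6.1, Cufflinks and DESeq2 on GRCh38, whose roles are not stated. Within a library, 100% of the values above 0 could be divided by 1 step (0.825 to 1.096 between libraries) to give whole numbers (tolerance 0.05), so the deposited signal is read counts divided by a size factor, without length correction. Of 60590 rows, 44 repeated an identifier and were added to the first. No 2 libraries of a group agreed within sampling noise (chi-square per degree of freedom at least 65.3).

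Differences were computed with limma 3.58.1 (R 4.3.3, trended eBayes) on log2(value + 1), which understates changes of low genes, for genes that reached 1 in 3 or more libraries, with Benjamini-Hochberg adjustment over the 26536 genes tested. The count tests edgeR 4.0.16 and DESeq2 1.42.0 on recovered reads called 1113 of 16908 genes and 1991 of 36340 (DESeq2 gave no adjusted p for 13393). Scripts were tested on simulated data. Exon lengths are unions of GENCODE 29 exons, which held 96.4% of the identifiers. The 3 read limit is 2.47 to 3.29 normalized reads and covers counting error only.

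The 10 genes, the gene lists and the P12 comparison were chosen with earlier results of these data known. Named are the 10 genes, GOLPH3, the 3 genes most correlated with MTF2, and in each list the called genes (at most 5, by p) and in any case the 2 with the smallest p, except 2 list genes that are not reported here but are included in the list counts, medians and sums. EPCAM, COMMD3-BMI1, SUZ12P1, RING1, PCGF2, KRT20, CDX1, TFF3, COL6A3 and COL1A1 were named after their values were seen. The same holds for VIL1, LGALS4, GPA33, CDH17, CEACAM5, CDX2, ZIC2, NR0B1, TSPYL5 and LIN28B. Alternatives were quantile normalization, other filters, a pseudocount of 0.1, both count tests, replicate and P number blocks and each library left out. A P12 term and leaving out both P12 libraries were added after seeing the data.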

Additional observations from a re-analysis of the deposited data

Results flagged for a closer look

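EZH1 had a log2 difference between libraries labelled GOLPH3 and Vector of 0.11 within the P12 pair and of -0.17 within the P13 pair, opposite in sign with 1 library on each side, and the difference between the pairs was not tested. PHF19 had 1 library far from the others among the 4 without P12, where GOLPH3 library 3 (P13) stood at 1069.6 normalized reads and the other 3 at 734 to 760.4. The gap took 0.922 of the range, above Dixon's 95% critical value for 4 values, which chance exceeds in about 1 of 20 groups. These 4 libraries came from both the GOLPH3 and the Vector group, which that critical value does not allow for.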

How the results depend on the processing

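The 10 Polycomb genes gave 0 calls between the groups under 15 of 16 alternatives and 3 when P numbers were blocked, and 0 against P12 under all 12. The replicate numbers do not pair the libraries (correlations of same-numbered deviations -0.23, -0.15 and 0.26), and with the replicate block 0 of the 10 and 32 further list genes were called. The correlation was 0.26 for the P12 pair and the P13 pair, but 0.33 for P8 with P11, which share no number, and the labels do not explain P. Of 146 further list genes tested 35 were called, 16 of them known targets, many of which passed the filter only through the Vector libraries. These counts were 11 and 4 when a value of at least 1 was required in every library, 74 and 26 with the P number block, and 7 and 1 without both P12 libraries, where fewer genes were tested. Leaving out 1 library gave 13 to 37 and 4 to 16, the lowest without Vector library 1 or 3. The counts were 22 and 9 without Vector library 2. Without Vector library 1, 2 or 3 only 128, 128 and 127 list genes and 25 targets were tested. A gene at 0 in all GOLPH3 libraries then cannot reach 1 in 3 libraries and drops out. All genes gave 459, 895 and 481 calls in these fits, beside 1346 in the main one. What else moved the counts was not tested. For single genes, 740 values under an alternative kept their direction and side of the threshold, 20 gained a call and 17 lost one.

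Signs turned in 4 results when 1 library was left out. Between groups EZH1 ranged from -0.20 to 0.0167 (turned without Vector library 3) and CBX2 from -0.51 to 0.31 (turned without GOLPH3 library 2, 0.25, or Vector library 3). Against P12, EED ranged from -0.16 to 0.22 (turned without GOLPH3 library 1, -0.07, GOLPH3 library 2 or Vector library 3, -0.0023, and with quantile normalization, -0.0022) and MTF2 from -0.18 to 0.15 (turned without GOLPH3 library 1, GOLPH3 library 2, 0.04, or Vector library 2, 0.07). Their main log2 differences were at most 0.16 in size and none was called. Quantile normalization moved the median of all genes from 0.016 to 0.0925 and turned no sign of the 10 genes between groups. With 3 libraries a group, 95% intervals were as wide as -1.16 to 0.83 (CBX2).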
